A study of Rattus norvegicus with 6 samples.

Results

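Kidney RNA of 3-day-old homozygous (Cy/Cy) and heterozygous (Cy/+) Han:SPRD rats was compared through 2 of the series' 6 arrays, 1 for each genotype. The Han:SPRD Cy rat carries a missense mutation in Anks6, which encodes an ankyrin-repeat protein of the primary cilium, and develops polycystic kidneys early and severely when homozygous and later when heterozygous. Each array set a Cy5-labelled pool of the mutant genotype against a Cy3-labelled pool of +/+ kidneys of the same age, so the value of a gene is its log2(Cy5/Cy3) and the comparison is the Cy/Cy value minus the Cy/+ value. The genotype is that of the whole animal, only the left kidney was used for RNA, and the number of rats in a pool is not given in the sources used here. The series also holds 7-day Cy/+ and Cy/Cy arrays against 7-day +/+ pools, used below beside the 3-day values, and arrays on which +/+ pools fill both channels, which stand apart from the rest and were not used, except in 1 alternative fit.

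At 3 days after birth the rat kidney is still forming nephrons, while its older tubules already reabsorb filtered solutes. Its cells range from podocytes and proximal tubule through the thick ascending limb, which dilutes the urine, to the distal tubule, which reabsorbs calcium, and the collecting duct, which concentrates the urine. Cysts in the Cy rat arise mainly from the proximal tubule, and cystic epithelium is known to divide and to lose features of the mature tubule.

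Of 15527 genes named from a probe, 11293 (72.7%) had a probe well above background in Cy3 on both arrays and were kept, and the other 4234 were set aside and are described apart. The labelled tissue was borne out by its markers: of 195 genes in the lists for nephron segments, progenitors, stroma and endothelium, 186 were well above background in Cy5 on both arrays. Between 66.8% and 68.2% of the spots of either channel passed the scanner's background test on these 2 arrays, 141 and 192 spots were left out for outlier flags, and at most 1 spot was saturated. With 1 array for each genotype no test of the 3-day difference exists, and the number of arrays limits its precision. Both arrays lay on the same slide, at fixed positions that were the same for each genotype at both ages, and Cy5 always held the mutant, so genotype and position cannot be told apart.

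The Cy/+ pool lay farther from its +/+ reference than the Cy/Cy pool did. Across the genes kept, the log2 ratios had an SD of 0.339 on the Cy/+ array and 0.187 on the Cy/Cy array. Their difference had an SD of 0.281, against 0.136 for the difference between the Cy3 channels of the same arrays, both labelled as +/+ kidney. The Cy3 channels were compared as single channels after a further normalization between arrays, not as ratios. Their spread is thus not that of a ratio difference without a labelled genotype difference. Spots of the same probe agreed more closely, with a median SD of 0.0443 over 206 probes printed several times. At least 2-fold differences were called in 81 of 11293 genes (0.717%), against 10 (0.0886%) between the Cy3 channels and 16 (0.142%) between the same genotypes at 7 days.

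**Figure D1:**
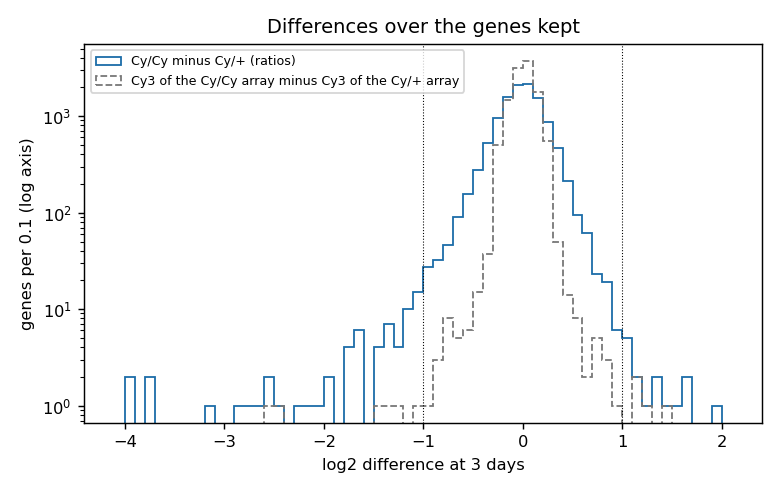
Genes per 0.1 log2 unit (log axis) by their difference at 3 days, for Cy/Cy minus Cy/+ (solid) and for the Cy3 reference channels of the same arrays (dashed), with dotted lines at 2-fold. The solid curve is wider (SD 0.281 against 0.136) and has a long arm of genes lower in Cy/Cy. The dashed curve compares single channels and the solid curve ratios, so the spreads are of unlike measures.

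Of the 81 genes, 15 were higher in Cy/Cy (0.133% of those kept) and 66 lower (0.584%). The higher genes thus made up 18.5% of the called genes, or 28.8% when the scanner software's own log ratios were used. All 15 higher genes and 64 of the 66 lower ones had their larger deviation from the reference on the Cy/+ array, and 71 of the 81 had a Cy/Cy ratio within 1.5-fold of the reference. The 15 higher genes had a median log2 ratio of -1.28 in Cy/+ and -0.09 in Cy/Cy, and the 66 lower genes 1.79 in Cy/+ and 0.15 in Cy/Cy. The exceptions, named after their values were seen, were Rhoxl, with ratios of -0.33 in Cy/+ and -1.58 in Cy/Cy, and Rec114, with -0.04 and -1.07. Most called differences were therefore distances of the Cy/+ pool from its reference, and the Cy/Cy pool was near its own. Rhoxl was also the only called gene not well above background in Cy5 of an array.

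**Figure D2:**
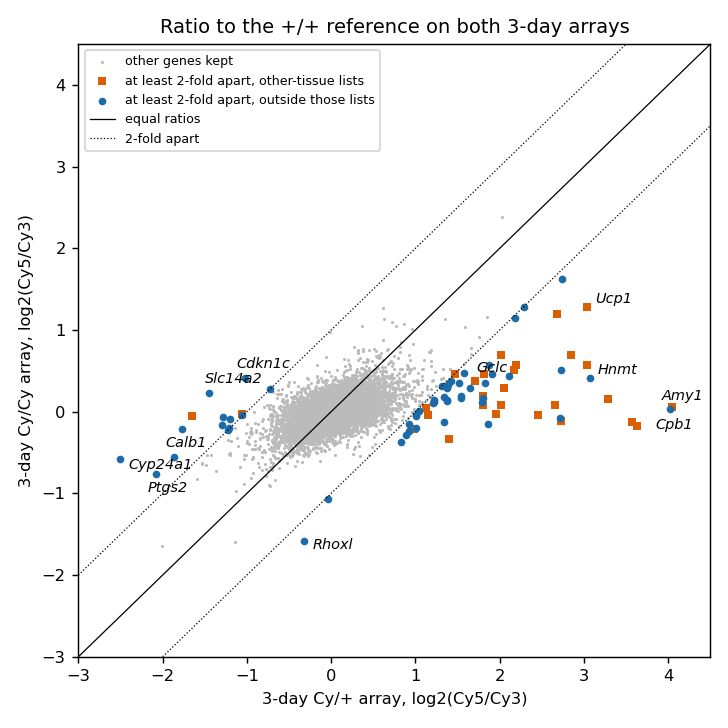
Log2(Cy5/Cy3) of each gene kept on the 3-day Cy/+ array (horizontal) and the 3-day Cy/Cy array (vertical), with squares for called genes in lists of other tissues, circles for the other called genes, a solid line for equal ratios and dotted lines at 2-fold. Called genes spread along the horizontal axis, from Cyp24a1 at -2.50 to Cpb1 at 4.05 in Cy/+.

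Genes of the exocrine pancreas, which makes digestive enzymes, were the lowest in Cy/Cy relative to Cy/+. The proenzymes of carboxypeptidase B (Cpb1) and chymotrypsin (Ctrb1) had log2 ratios of 4.05 and 3.62 in Cy/+ and of 0.06 and -0.18 in Cy/Cy. Of 11 list members kept, 9 were at least 1.5-fold lower in Cy/Cy, against 278 of all 11293 genes (2.46%), and 2 were at least 1.5-fold higher, against 138 (1.22%). The list had a median difference of -2.58, against -0.01 over all genes kept. Amy1 and Ctrl, a salivary-type amylase and a chymotrypsin-like protease outside the list, differed by -4.00 and -2.79.

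The same list had 16 members among the genes set aside, with a median difference of -3.21, and 14 of them were at least 2-fold lower in Cy/Cy, against 24 of all 4234 genes set aside (0.567%). The Cy5 signal of the trypsinogen Prss1 was 32700 in Cy/+ and 64.9 in Cy/Cy, where it was not well above background. From the Cy5 channels alone, the bound for a probe not well above background, Prss1 was at least 270-fold lower in Cy/Cy, Prss3b at least 107-fold, the amylase Amy2a3 at least 67.8-fold and the lipase-related Pnliprp1 at least 49.3-fold. These bounds are open to dye bias and set Cy5 of the arrays against each other, without the reference. Over the whole list, 25 of 27 members with a probe were well above background in Cy5 of the Cy/+ array and 12 in that of the Cy/Cy array, with median Cy5 signals of 1820 and 73.8. The Cy3 channels differed too: log2 Cy3 of the Cy/Cy array minus that of the Cy/+ array was -2.52 for Ctrb1 and -2.41 for Cpb1, although both channels are labelled +/+. The labels do not say whether the arrays shared a reference pool, so different reference pools and signal passing from Cy5 into Cy3 cannot be told apart here, and the ratios of these genes hold only for the reference of their own array. Among the 81 called genes, 7 had Cy3 values at least 1.5-fold apart, all 7 of them lower in Cy/Cy. Over all genes kept, 42 did (0.372%).

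Fat and islet transcripts followed the same direction. In the adipose list 10 of 14 members kept were at least 1.5-fold lower in Cy/Cy, against 2.46% of all genes kept. The median was -0.85, and the 1 higher member was Pck1, an enzyme of gluconeogenesis that proximal tubules also express, at 0.73. The fat-cell carbonic anhydrase Car3 had ratios of 3.04 in Cy/+ and 0.57 in Cy/Cy. The adipocyte hormone Adipoq had 2.84 and 0.69, and Ucp1, which uncouples respiration in brown fat, 3.04 and 1.28. Adipose genes were thus above the reference in both pools and farther above it in Cy/+, with median ratios of 1.18 and 0.33. Of the set-aside adipose genes, Plin1 differed by -0.19 and was at least 1.32-fold lower by the Cy5 bound, and Lep was not well above background in Cy5 on either array. In a list of islet genes written after the data were seen, 3 of 6 members kept were at least 1.5-fold lower, led by the secretory granule protein Chgb (-2.50) and insulin (Ins1, -1.98). The part of pancreas and fat transcripts in the other differences was not tested.

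Urothelial genes were also lower in Cy/Cy. Urothelium lines the renal pelvis and ureter. A list of its genes, likewise written after the data were seen, had 9 of 14 members kept at least 1.5-fold lower. The share over all genes kept was 2.46%. None was at least 1.5-fold higher in the list, and its median was -1.05. The uroplakin Upk3a had log2 ratios of 2.17 in Cy/+ and 0.50 in Cy/Cy, and Upk1b 1.80 and 0.19. The basal keratins Krt14 and Krt15 differed by -1.72 and -1.77. Krt14 had a second probe, not well above background in Cy3, at -0.16. A list of ureter and visceral smooth muscle genes, written at the same point, had 3 of 12 members at least 1.5-fold lower. Among them were Tbx18, a transcription factor of ureteral mesenchyme, at -1.36, and smooth muscle myosin (Myh11) at -0.9997, just short of 2-fold. Another Myh11 probe differed by -0.11. The urothelium and ureter lists had median differences of -0.03 and -0.02 at 7 days.

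Lists of other tissues held 26 of the 66 lower genes, including 1 each of skeletal muscle (the troponin Tnnc2, -1.73) and liver (transferrin, Tf, -1.08). Tf is also made elsewhere. At 7 days, none of these 26 was at least 1.5-fold lower in Cy/Cy (0.496% of all genes kept were), 4 were at least 1.5-fold higher (0.717%), and 8 lay below 0. Of the 40 lower genes outside those lists, which still include Amy1 and Ctrl, 9 were at least 1.5-fold lower at 7 days and 24 lay below 0. Over all genes kept, 48.5% lay above 0 at 7 days. The lists are not complete, so the 40 can hold further genes of other tissues. In bulk RNA, fewer cells of a type and less RNA per cell cannot be told apart.

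**Figure D3:**
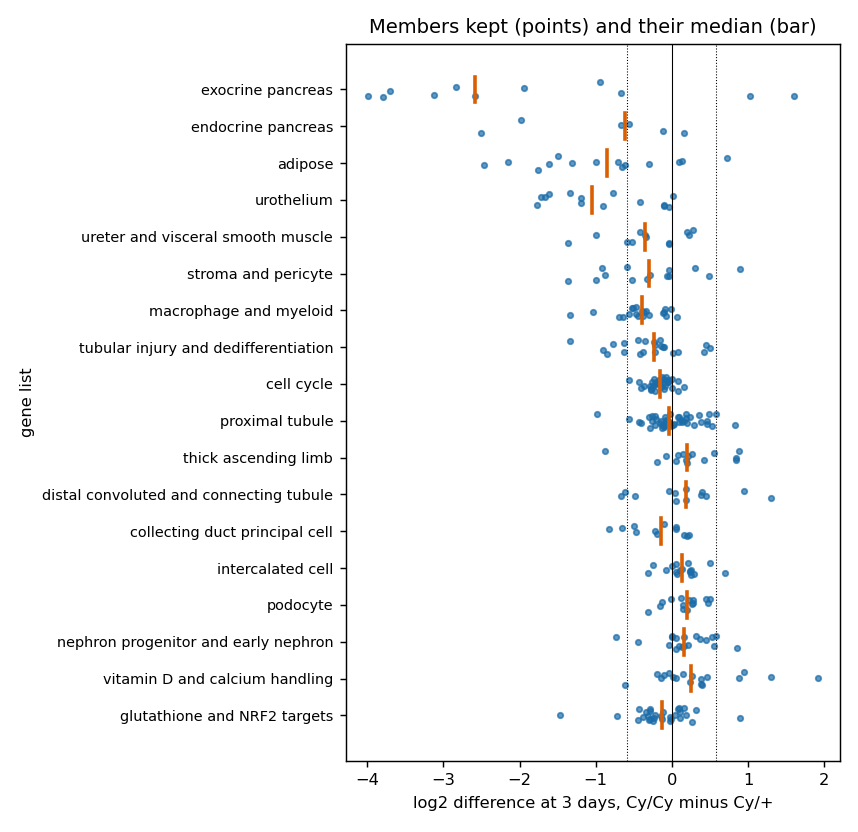
Difference at 3 days (Cy/Cy minus Cy/+, log2) of every member kept (points) of 18 gene lists, with the list median as a bar and dotted lines at 1.5-fold. List medians are -2.58 for exocrine pancreas, -0.62 for endocrine pancreas, -0.85 for adipose and -1.05 for urothelium. Thick ascending limb and podocyte lists both have a median of 0.20. Single members below -1 also occur in the ureter, stroma, macrophage, injury and glutathione lists.

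The lowest gene outside those tissues was Hnmt, the enzyme that inactivates histamine by methylation. Its log2 ratio was 3.06 in Cy/+ and 0.42 in Cy/Cy at 3 days, a difference of -2.65, and its Cy5 signal was 1170 and 141. At 7 days the difference was -1.45. Hnmt was therefore far above the reference in Cy/+ and slightly above it in Cy/Cy at both ages. Its Cy3 signal, 92.1 and 88.5, was low, and its difference was -3.35 with the scanner software's log ratio, which changes both the background and the dye correction. In the histamine list 2 of 7 members kept were at least 2-fold lower, against 0.584% of all genes kept. The member besides Hnmt was the diamine oxidase Aoc1, which breaks down histamine by oxidation, at -1.11. Hdc, which makes histamine and was looked up after the values were seen, stood at 0.13.

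Single genes of glutathione synthesis and of sulfation were also lower in Cy/Cy. Gclc, the catalytic subunit of the enzyme that starts glutathione synthesis, had ratios of 1.82 in Cy/+ and 0.35 in Cy/Cy. It differed by -1.47 at 3 days and -0.96 at 7 days. Its Cy5 signal at 3 days was 2700 in Cy/+ and 1280 in Cy/Cy. The Cy3 channels of the 3-day arrays differed by 0.47 for it (Cy/Cy array minus Cy/+ array), which enters the difference of ratios. The list of glutathione genes and targets of the stress-response factor NRF2 as a whole was near the background, with 2 of 30 members kept at least 1.5-fold lower, 1 higher and a median of -0.14. The glutathione peroxidase Gpx2 was the other lower member (-0.72, with another probe at -0.21). The glutathione transferase Gstm5 was the higher one (0.89, with other probes at 0.26 and 0.39). Haem oxygenase (Hmox1) lay below the reference in both pools, at -1.14 in Cy/+ and -1.59 in Cy/Cy. In the list of sulfotransferases, which attach sulfate to hormones and drugs, 3 of 11 were at least 1.5-fold lower, against 2.46% of all genes kept. Sult1c2 had ratios of 1.75 and 0.91, and Sult1c2a 1.84 and 1.16, so both were above the reference in both genotypes. Sult1a1 differed by -0.89. All 3 kept probes assigned to each of Sult1c2 and Sult1c2a gave differences below 0 at 3 days. The split of signal between these close relatives is uncertain.

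Markers of tubular injury and of macrophages were lower in Cy/Cy more often than the background of 2.46%. Of 22 injury and dedifferentiation genes, 6 were at least 1.5-fold lower and none was higher, with a median of -0.23. Osteopontin (Spp1), a secreted phosphoprotein of injured tubules and of macrophages, had ratios of 1.54 in Cy/+ and 0.20 in Cy/Cy. It differed by -1.34 at 3 days and -0.70 at 7 days. Its Cy3 channels at 3 days differed by 0.34 (Cy/Cy array minus Cy/+ array), which enters the difference of ratios. The other members with large differences were Krt20 (-0.90), the calcium-binding protein S100a6 (-0.85) and Krt19 (-0.77). Keratins of this list are also expressed in urothelium, whose genes moved with it. Among 21 macrophage and myeloid genes, 20 lay below 0 and 4 were at least 1.5-fold lower, with a median of -0.40 at 3 days and -0.03 at 7 days. Over all genes kept, 5838 of 11293 lay below 0 at 3 days. The monocyte attractant Ccl2 was above the reference in both pools, at 2.18 in Cy/+ and 1.14 in Cy/Cy. Ccl6 differed by -0.69 and the adaptor Tyrobp by -0.64, with another Tyrobp probe at -0.24. With Ccl2 and Spp1 these were the 4 lower members, and Spp1 is counted in the injury list too. Other members were mixed in size. Csf1r (-0.08), Adgre1 (-0.09), Ptprc (-0.02) and Itgam (0.07) lay near 0, and Cd68 (-0.37), C1qa (-0.44) and Mrc1 (-0.52) lower. In the lymphocyte list none of 5 genes kept was past 1.5-fold in either direction, with a median of -0.02.

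Some neutrophil granule genes differed the other way. Of 9 kept, 3 were at least 1.5-fold higher in Cy/Cy, against 1.22% of all genes kept, and none was lower. The defensin genes Defa5 and RatNP-3b had ratios of -1.77 and -1.29 in Cy/+ and of -0.21 and -0.16 in Cy/Cy. S100a8 differed by 0.64, and by 0.19 on another kept probe. The other members kept ranged from -0.14 (Lcn2) to 0.42 (Mmp9). At 7 days Defa5 and RatNP-3b differed by 0.17 and 0.13. Defensin genes are similar in sequence, so the split of signal between them is uncertain. In the erythroid list 2 of 10 genes were at least 1.5-fold higher, with a median of 0.15. They were the beta-globin gene Hbb (0.77, with ratios of -1.60 and -0.83) and Slc4a1 (0.69), which intercalated cells also express. The other globin genes kept differed less: Hbb-b1 by 0.18, Hbe2 by 0.11 and Hba-a3 by 0.04. Hba-a3 lay above the reference in both pools, at 0.46 in Cy/+ and 0.50 in Cy/Cy. The part of blood content in these values was not tested.

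A gene of vitamin D breakdown, Cyp24a1, led the higher group. In a list of 18 vitamin D and calcium handling genes kept, 4 were at least 1.5-fold higher in Cy/Cy and 1 lower. The shares over all genes kept were 1.22% and 2.46%, and the list median was 0.25. This list was written after the data were seen, when its leading members were known, so its counts only describe it. Calb1 is counted there by its brightest probe, and its probes differ in sign, as given below. Cyp24a1, the mitochondrial enzyme that breaks down active vitamin D, had the largest difference, 1.92. Its Cy5 signal was 240 in Cy/+ and 1150 in Cy/Cy, and its log2 ratio -2.50 in Cy/+ and -0.58 in Cy/Cy. The gene was thus far below the reference in Cy/+ and less far below it in Cy/Cy. At 7 days the order was turned, with ratios of 1.19 in Cy/+ and 0.10 in Cy/Cy and a difference of -1.09. A second, dimmer Cyp24a1 probe gave 1.39 at 3 days and -0.80 at 7 days, so the probes shared the sign at each age. Their first 30 bases, from the deposited probe sequences on the minus strand of rn3, show that the probes are separate sequences, at chr3:161446217-161446276 and chr3:161449277-161449336.
Cyp24a1 brighter probe: atataaagacatgaggtacccaatttagta
Cyp24a1 dimmer probe: cccaagtgtgccatttacaactcggaccct

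Calb1 encodes calbindin-D28k, the calcium buffer of the distal tubule that is also a marker of the ureteric bud. The probe that represents it, its brightest, had log2 ratios of -1.86 in Cy/+ and -0.56 in Cy/Cy at 3 days and of -1.43 and -0.27 at 7 days. The differences were 1.30 and 1.16. The 4 probes for the gene did not share a direction at 3 days. Of the brighter pair (Cy3 signals of 11400 to 27300), the other differed by 0.68. The dimmer pair (559 to 705), which lies farther along the plus strand, differed by -0.90 over 10 spots, with an SD between spots of 0.05, and by -0.69. The median over the 4 probes was -0.0024. Calb1 was the only called gene with several kept probes, of 9 such genes, whose probes differed in sign. The probes lie on rn3 at chr5:30475783-30475991, chr5:30479753-30479812, chr5:30480258-30480317 and chr5:30480350-30480409. The first 30 bases of each are shown in that order because the call depends on which of them is read.
Calb1 bright probe 1: aggaaaatttccttcttaaattccagggaa
Calb1 bright probe 2: tgtgcgttttccatctagtggaagggatgt
Calb1 dim probe 1: tataatggtgacatggaaaaaatactgctg
Calb1 dim probe 2: tcccagacaccacaagataccaacaagagc

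S100g, the smaller calbindin of the distal tubule, had ratios of -1.47 in Cy/+ and -0.53 in Cy/Cy and differed by 0.94 at 3 days and 0.80 at 7 days. The calcium-sensing receptor Casr differed by 0.88, and the epithelial calcium channel Trpv6 by -0.61. In the list of distal convoluted and connecting tubule genes, 2 of 13 were at least 1.5-fold higher (Calb1 and S100g) and 2 lower (Trpv6 and the cation channel Trpm7, at -0.67). The shares over all genes kept were 1.22% higher and 2.46% lower.

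The urea transporter Slc14a2, which concentrates urea in the inner medulla, was second among the higher genes. Its bright probe had a Cy5 signal of 1980 in Cy/+ and 7310 in Cy/Cy, ratios of -1.45 and 0.23, and a difference of 1.68 at 3 days and 0.63 at 7 days. A dim probe for the gene (Cy3 signals of 149 and 144), on the minus strand at the other end of a stretch from chr18:75144735-75144794 to chr18:75183111-75183170 of rn3, differed by 0.18. The median over both probes was 0.931. Their first 30 bases are shown because only 1 of them carries the difference.
Slc14a2 bright probe: tctggtaaggagtgaccttttccaacatcc
Slc14a2 dim probe: gaggctgattcgttccctctgcccagatct

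Over all genes kept, 1.22% were at least 1.5-fold higher and 2.46% lower. The urea transport and inner medulla list that holds Slc14a2, written after the data were seen, had 1 of 12 members higher and 2 lower. The lower members were the water channels Aqp3 (-0.82) and Aqp2 (-0.66), which are also in the list of principal cells of the collecting duct, where 2 of 12 were lower and none was higher. Slc14a2 was thus the only member of its list past 1.5-fold in its direction.

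Of 2 genes for small trypsin inhibitors, Spink1 and Spink1l, each was higher in Cy/Cy, against the direction of the pancreas list that contains them. Spink1l had ratios of -1.66 in Cy/+ and -0.05 in Cy/Cy at 3 days, and differed by 1.61 at 3 days and 1.33 at 7 days. Spink1 had -1.05 and -0.03, and differed by 1.03 and 0.85. A second Spink1 probe, which spans chr18:37170886-37179448 on rn3 and was not well above background in Cy3, differed by -1.38 at 3 days and 0.25 at 7 days, with Cy5 signals of 319 in Cy/+ and 77.5 in Cy/Cy. The probes named for Spink1 thus gave both directions at 3 days, as their first 30 bases, beside those of Spink1l, help to tell apart.
Spink1 probe kept, chr18:37168790-37168849: gttcttggttttagttcttattttcaagac
Spink1 probe set aside: tgggactaacggaattacttaccccagtga
Spink1l probe, chr18:37131050-37132576: acactacagctaaggtgattgggaaaaagg

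Cdkn1c encodes p57, an inhibitor of cyclin-dependent kinases that holds cells out of division. Its Cy5 signal was 112000 in Cy/+ and 206000 in Cy/Cy, with ratios of -1.02 and 0.41 and a difference of 1.43 at 3 days and 0.98 at 7 days. All 4 probes for the gene gave differences of 1.05 to 1.43 at 3 days. The Cy3 channels of the arrays differed by -0.48 (Cy/Cy array minus Cy/+ array), which enters the difference of ratios. In the list of kinase inhibitors and D-type cyclins it was the only member of 11 past 1.5-fold, and Cdkn2c, another inhibitor, lay at -0.46. Over all genes kept, 1.22% were at least 1.5-fold higher and 2.46% lower. Among 33 cell cycle genes none was past 1.5-fold in either direction. Of these, 28 lay below 0 at 3 days, against 5838 of all 11293 genes kept. The cell cycle median was -0.16 at 3 days and -0.25 at 7 days. Both pools were above the reference (median ratios of 0.41 in Cy/+ and 0.29 in Cy/Cy).

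Ptgs2 encodes cyclooxygenase 2, which makes prostaglandins and in the kidney is found at the macula densa. Its bright probe, averaged over 10 spots with an SD of 0.04 between spots, had ratios of -2.08 in Cy/+ and -0.77 in Cy/Cy, and differed by 1.31 at 3 days and 1.00 at 7 days. A second probe with Cy3 signals of 94.6 and 91.6 differed by 0.03, and the median over both was 0.672. In the prostaglandin list it was the only member of 19 past 1.5-fold, against 1.22% higher and 2.46% lower over all genes kept. Angiotensinogen (Agt), the precursor of the angiotensin peptides, was among the lower genes, with ratios of 1.33 in Cy/+ and -0.12 in Cy/Cy.

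The higher group also held 2 neurofilament subunits, Nefl (1.22) and Nefm (1.01), the synaptic vesicle protein Sv2b (1.00), the fetal plasma protein Afp (1.11), and the transcription factors Tbx3 (1.02) and Lef1 (1.00). All 6 were below the reference in Cy/+, at -1.28, -1.06, -1.23, -1.20, -1.21 and -0.73 in this order. In Cy/Cy only Lef1 was above it, at 0.27. Each was also higher in Cy/Cy at 7 days, by 0.23 to 0.46. At the 2-fold limit, Lef1 (1.001) was just inside, and C1qtnf12 (0.9933), named after its value was seen, just outside. On the lower side Cfd (-1.0), also named after its value was seen, was just inside, and Myh11 just outside.

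**Figure D4:**
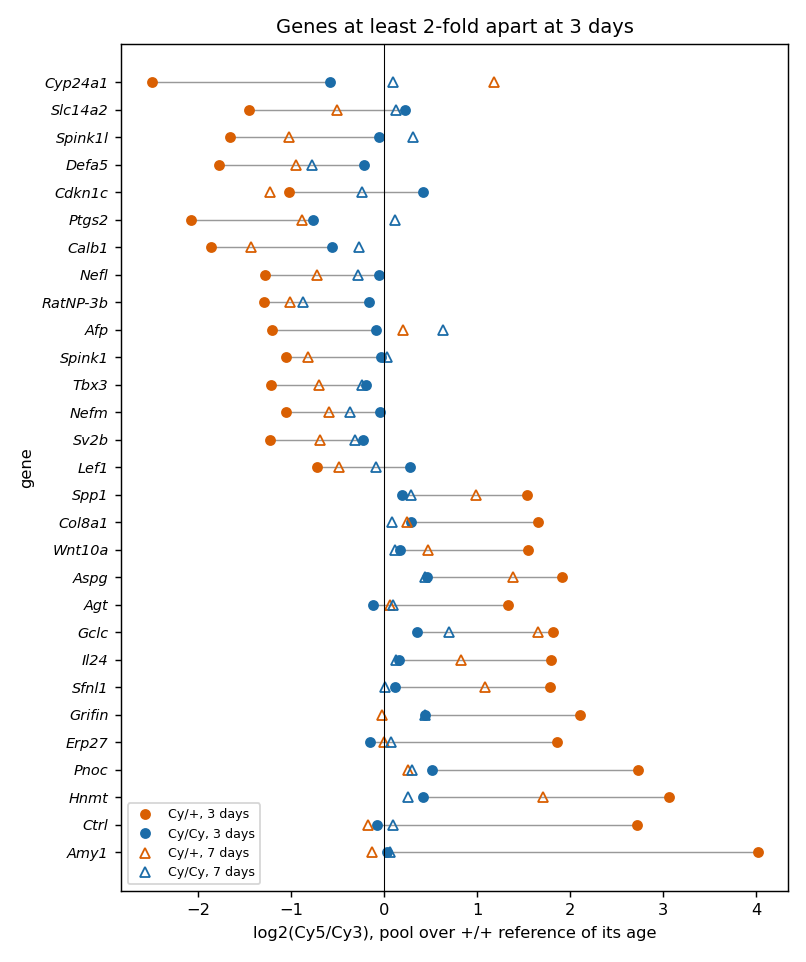
Log2(Cy5/Cy3) in Cy/+ (orange) and Cy/Cy (blue) at 3 days (circles, joined by a line) and 7 days (triangles), for all 15 higher genes and the 14 lowest genes outside the lists of other tissues, a selection made after the values were seen. These lists are not complete, and the 14 still include Amy1 and Ctrl. In 28 of these 29 genes the 3-day Cy/+ circle lies at least 1.0 from 0, the exception being Lef1 at -0.73.

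Medians of the nephron segment lists ran from -0.15 (collecting duct principal cell) to 0.20 (thick ascending limb), against -0.01 over all genes kept. The stroma list lay lower. Of all genes kept, 1.22% were at least 1.5-fold higher and 2.46% at least 1.5-fold lower. Stroma and pericyte genes had 5 of 14 members at least 1.5-fold lower in Cy/Cy, 1 higher and a median of -0.30. Its lower members included Tbx18 and Myh11, which the ureter and smooth muscle list shares, and the secreted protein Fibin (-0.91). Ureteric tip and bud genes had 4 of 16 lower, 2 higher and a median of 0.00, and the lower ones included Upk3a and Upk1b, which are also in the urothelial list, and Krt19. The thick ascending limb had 3 of 15 members at least 1.5-fold higher in Cy/Cy, 1 lower, and a median of 0.20. Its salt cotransporter Slc12a1 had ratios of -0.99 in Cy/+ and -0.15 in Cy/Cy, and uromodulin (Umod), the main protein of normal urine, -0.62 and 0.22. Sostdc1, a secreted inhibitor of BMP and Wnt signals, was the lower member, at -0.88. Podocyte genes had a median of 0.20 with none of 15 past 1.5-fold, and the slit diaphragm protein nephrin (Nphs1) was among their larger values, at 0.47.

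The proximal tubule, where cysts of this strain mainly arise, had a median of -0.03 over 46 genes (0.04 with both arrays' ratios scaled to the same spread), with 1 at least 1.5-fold higher and 1 lower. The lower was Slc7a13, a transporter of acidic amino acids in the late proximal tubule, with ratios of 1.36 in Cy/+ and 0.38 in Cy/Cy, and differences of -0.98 at 3 days and -0.90 at 7 days. The higher was Miox, which breaks down inositol, at 0.83 and 0.58. Intercalated cell genes had 1 of 17 higher, the anion exchanger Slc4a1 (0.69), which is also an erythroid gene. Another Slc4a1 probe differed by 0.13. Nephron progenitor and early nephron genes had 2 of 19 higher, the transcription factor Lhx1 (0.86) and the ligand Wnt4 (0.59), and 1 lower, the progenitor gene Cited1 (-0.73).

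Lists of the pathways that the series' title and the strain bring up were read beside the shares over all genes kept. These shares were 1.22% at least 1.5-fold higher and 2.46% at least 1.5-fold lower. Of 21 nuclear receptor genes (RXR, RAR, PPAR, LXR and relatives), 1 was at least 1.5-fold higher (Nr2f2, 0.61) and 1 lower (Pparg, -0.72, a receptor of fat cells, whose genes moved with it), with a median of 0.18. Of 14 retinoid metabolism genes 1 was higher, the retinoic acid hydroxylase Cyp26b1, at 0.84 at 3 days and -0.51 at 7 days. Fatty acid oxidation genes had 1 of 28 higher (Ehhadh, 0.75) and 1 lower (the fatty acid carrier Cd36, -1.04, which fat cells also express). Among 28 genes of cholesterol and fatty acid synthesis, 23 lay below 0 at 3 days, against 5838 of all 11293 genes kept. Their medians were -0.23 at 3 days and -0.22 at 7 days. Stard4 and Me1 were the 2 at least 1.5-fold lower, and another Me1 probe differed by -0.11. None of 17 cystic disease and cilium genes was past 1.5-fold. Anks6 differed by 0.18, with ratios of -0.04 and 0.13. A missense change need not alter the level of its transcript, so this value does not check the genotype labels.

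The 7-day arrays asked which 3-day differences were seen again in other pools. Of the 15 higher genes, 14 were above 0 at 7 days and 6 were at least 1.5-fold higher. Across all genes kept 48.5% were above 0 at 7 days and 0.717% at least 1.5-fold higher. The 6 were Spink1l, Calb1, Ptgs2, Cdkn1c, Spink1 and Slc14a2. Of the 66 lower genes, 32 were below 0 at 7 days, no larger a share than over all genes kept. Those at least 1.5-fold lower numbered 9, against 0.496% of all genes kept. They included Hnmt, Sfnl1, Gclc, Aspg, Aadat, Ccl20, Spp1 and Il24, of which Aspg, Ccl20 and Il24 were named after their values were seen. Aspg, an asparaginase, had ratios of 1.91 in Cy/+ and 0.46 in Cy/Cy at 3 days and of 1.39 and 0.44 at 7 days. Taking all genes kept, 37 were at least 1.5-fold apart in the same direction at both ages, 13 of them higher and 24 lower. Another 8 were so in opposite directions: Adipoq, Car3, Cyp24a1 and, named after their values were seen, Cfd, Itm2a, Mfap5, Retn and Rhox5.

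**Figure D5:**
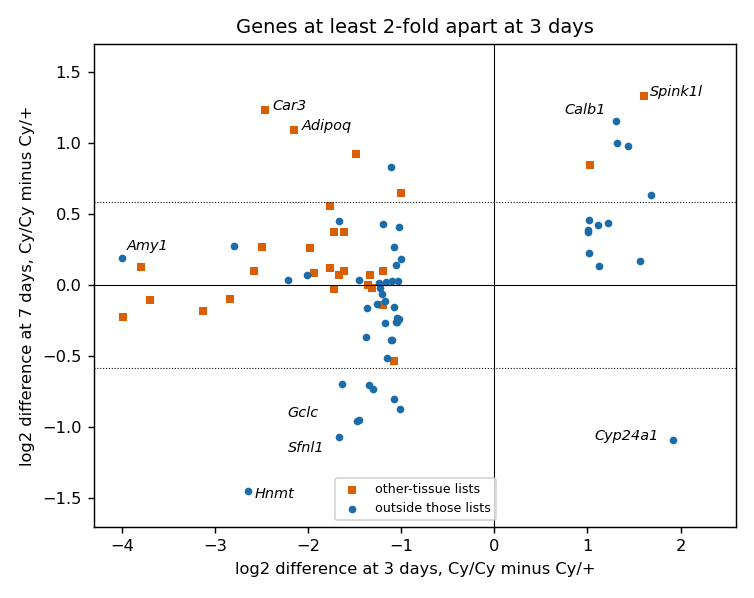
Difference Cy/Cy minus Cy/+ (log2) at 3 days (horizontal) and 7 days (vertical) for the 81 genes called at 3 days, with squares for lists of other tissues, circles for other genes and dotted lines at 1.5-fold at 7 days. Pancreas and fat genes scatter about or above 0 at 7 days, Hnmt lies lowest at -1.45, and Cyp24a1 alone is high at 3 days and low at 7 days.

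A fit over both ages used them as the only repeats, with age as a term (limma, Benjamini-Hochberg over 11293 genes, n = 2 arrays for each genotype). Nothing in the labels says that pools came from separate litters, so its p-values speak of the scatter among these 4 arrays, which may be technical, and the genes below had in part been seen at 3 days already. No gene passed (0 of 11293, 0%), and 1005 had a p under 0.05 before adjustment. The smallest adjusted p-values in limma were 0.108, for Spink1l (1.47 ± 0.12, SE) and Calb1 (1.23 ± 0.11, SE, on the bright probe). Ptgs2, Slc7a13, Aadat, Cdkn1c, Sfnl1, Spink1, Dhrs2l1 and Gclc followed at an adjusted p of 0.135 in limma. Sfnl1, a relative of the epithelial protein stratifin, had ratios of 1.79 in Cy/+ and 0.11 in Cy/Cy at 3 days, and Dhrs2l1, a short-chain dehydrogenase, -1.54 and -0.62. Aadat, an aminotransferase of tryptophan and lysine breakdown, had 1.32 and 0.31. Its Cy3 channels at 3 days differed by 0.38 (Cy/Cy array minus Cy/+ array), and its Cy5 signal was 10500 in Cy/+ and 6380 in Cy/Cy. The count depended on the normalization, since limma called 248 genes with median centring in place of loess and 3 with the scanner software's log ratios. Leaving out the 7-day Cy/+ array, in a fit without the age term, gave 43, and leaving out each other array gave 0.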

How the data were processed

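Members and gene lists were chosen with earlier results of these data known, and 5 of the 43 lists were written after the data were seen. Arrays held 60-base probes. Mean spot signal and median local background were deposited as scanner intensity, not yet normalized, per the file headers. A log10 ratio of Cy5 to Cy3, made by the scanner software (Agilent Feature Extraction 9.5.1.1) after its own background and dye correction, was deposited too, per the file headers. The authors' value table equalled it (largest difference 0), with a median of -0.0159 for the 3-day +/+ array and 0 elsewhere. Where the series text gives a different array and software release, the headers were followed. Coordinates are those of rn3 in the files, and no annotation of that build was used, so exons and UTRs are not stated.

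Mean signals were corrected with normexp (offset 50) and normalized by loess in each array (R 4.3.3, limma 3.58.1), without control and outlier spots. Spots of a probe were averaged, and a gene was read from its probe brightest in Cy3. Of 41012 probes, 10735 were named by their own accession, 117 by another, 5542 by symbol and 3704 by synonym through a GRCr8 gene table. A further 41 matched several genes and 20873 none. Called means at least 2-fold (1.5-fold for lists). Cy3 channels were compared after loess and Aquantile.

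Named genes were the 15 most different each way, Anks6, up to 4 per list, the 10 smallest p-values over both ages, and up to 4 set-aside pancreas and adipose genes. The limma fit was tested on simulated data. Alternatives were other normalizations, backgrounds, channels, probe rules, filters, folds and left-out arrays. Some genes are not reported here.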

Additional observations from a re-analysis of the deposited data

Results flagged for a closer look

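Differences between Cy/Cy and Cy/+ that were at least 1.5-fold at both ages and of opposite sign were singled out among the named genes. The difference between ages was not tested, and age and slide cannot be told apart. The 3-day difference minus the 7-day difference was 3.01 on the log2 scale for Cyp24a1, -3.25 for Adipoq and -3.7 for Car3.

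Outside the named genes, 11998 probes matched to no gene were well above background in Cy3 on both arrays. Of these, 30 (0.25%) were at least 2-fold apart at 3 days, 14 higher and 16 lower in Cy/Cy. Between the Cy3 channels, a single-channel measure, 12 were.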

How the results depend on the processing

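The count of genes at least 2-fold higher in Cy/Cy was 15. It was 46 with the scanner software's log ratios, 7 with both arrays' ratios scaled to the same spread, and 138 at 1.5-fold. The count of lower genes was 66. It was 114 with the software's log ratios and 278 at 1.5-fold. Without genes in the lists of other tissues, an alternative chosen after seeing the data, it was 40, with Amy1 and Ctrl still among them. The other alternatives gave 11 to 21 higher and 45 to 93 lower genes. The limma fit over both ages called 0 genes, 248 with median centring, 3 with the software's log ratios, and 0 to 43 leaving out an array without the age term. With the age term, leaving out an array left no residual degrees of freedom. The cause was not tested.

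Among 181 genes named by rule, the difference changed sign in a called gene only for Calb1, at -0.0024 over the median of its probes. Of 43 list medians, 10 changed sign in at least 1 of 6 alternatives, and none of these was beyond 0.102 in size. Cy5 alone gave -6.40 for Cpb1 and -6.31 for Ctrb1, and the software's log ratio -2.48 for Agt, -2.17 for Aoc1 and -3.02 for Erp27. The moves under Cy5 alone came with Cy3 differences of -2.41 for Cpb1 and -2.52 for Ctrb1. Cy/Cy and Cy/+ were paired only by age, the same as slide, and without that term limma called 0 genes.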
